A study of Mus musculus with 6 samples.

Results

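The mitochondrial ribosomal protein genes were taken as all protein-coding genes whose symbol starts with Mrpl or Mrps followed by a digit. The count table held 78 such genes among 54532 listed genes, of which 51 encode proteins of the large subunit, 26 encode proteins of the small subunit, and 1, Mrps36, is placed in neither. RNA sequencing measured their messenger RNA in bone marrow cells selected with CD8 magnetic beads, which bind the surface protein of cytotoxic T cells. All 6 libraries came from females of the hybrid strain CByB6F1, 2 to 5 months old, with immune bone marrow failure (BMF), a model of marrow destruction by T cells. Mice of 3 libraries (pools 1, 2 and 3) had been given ruxolitinib, which inhibits JAK1 and JAK2, kinases of cytokine signalling, and mice of the other 3 (pools 4, 5 and 6) were untreated controls that also had BMF. The RNA of a library came from 2 to 3 pooled mice of 1 group, so the p-values measure the spread between pools. The sources used here do not give the dose, the length of treatment or the day of sampling.

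Mitochondria translate their own small set of messenger RNAs on a dedicated ribosome, the mitoribosome. Its RNA comes from the mitochondrial genome, while all of its proteins are encoded in the nucleus, made in the cytosol and imported. The products of mitoribosomal translation are core subunits of the respiratory chain and ATP synthase, and T cells are known to enlarge this machinery when they are activated. Some mitoribosomal proteins have relatives in the bacterial ribosome, and others are found in mitochondria alone.

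The ruxolitinib libraries held 14139605, 13829808 and 14002397 counts and the control libraries held 17708196, 15740514 and 16642610. The makeup of the selected cells differed between the groups. The summed level of 17 genes of CD8 T cell identity was 1900 to 5415 CPM (counts scaled to a common library size) with ruxolitinib and 10618 to 12914 CPM in the controls, all 17 of them were detected in both groups, and 16 of 17 fell past an adjusted p of 0.05 in edgeR, the test used throughout. Erythroid markers summed to 126376 to 247211 CPM with ruxolitinib and to 1928 to 2763 CPM in the controls, and 11 of 11 rose. The 10 monocyte and macrophage markers (8082 to 13267 against 1025 to 1466 CPM) and the 8 B cell markers (1006 to 1577 against 203 to 262 CPM) all rose, and the B cell genes Ms4a1 and Pax5 had 0 counts in all 3 controls. Of 8 granulocyte markers, which summed to 8274 to 19087 CPM with ruxolitinib and 1538 to 5931 CPM in the controls, 5 rose and 1 fell. The part of these cell types in the results that follow was not tested.

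Promoter sequence was set beside the members because their genes are spread over 17 chromosomes and share known regulators in other tissues. RefSeq promoter windows of GRCm38.p6, from 250 bases before to 50 bases after a start site, were matched by symbol to 68 of the 77 members with enough counts to test, giving 74 windows. The windows below hold the letters that were searched for on both strands, shown in capitals. They are the ETS letters CCGGAAGT (read by GABP, a factor known for mitochondrial genes), the 10-base NRF1 motif (in capitals in Mrpl9 and Mrpl39) and the 11-base YY1 motif (in capitals, as its reverse complement, in Mrps11). Each stretch is 100 bases of the gene's own strand, 5′ to 3′. Mrpl33 is shown because its messenger RNA had the largest fall of the family, Mrpl27 and Mrps27 because they carry the ETS letters in opposite orientations, Mrpl9 and Mrpl39 because they carry the same NRF1 letters but did not have the same outcome, and Mrps11 for the YY1 letters.
Mrpl33, chr5:31613856-31613955, plus strand: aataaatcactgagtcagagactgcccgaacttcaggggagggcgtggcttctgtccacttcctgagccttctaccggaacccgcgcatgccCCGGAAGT
Mrpl27, chr11:94653691-94653790, plus strand: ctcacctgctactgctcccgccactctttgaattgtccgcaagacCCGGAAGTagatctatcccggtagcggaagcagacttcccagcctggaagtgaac
Mrps27, chr13:99344686-99344785, plus strand: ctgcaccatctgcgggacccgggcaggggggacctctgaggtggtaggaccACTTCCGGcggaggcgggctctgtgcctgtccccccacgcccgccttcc
Mrpl9, chr3:94443236-94443335, plus strand: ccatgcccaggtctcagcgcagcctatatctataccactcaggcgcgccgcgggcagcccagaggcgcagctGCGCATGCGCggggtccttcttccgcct
Mrpl39, chr16:84735275-84735374, minus strand: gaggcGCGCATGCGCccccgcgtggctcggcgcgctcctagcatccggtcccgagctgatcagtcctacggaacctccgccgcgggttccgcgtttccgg
Mrps11, chr7:78783016-78783115, plus strand: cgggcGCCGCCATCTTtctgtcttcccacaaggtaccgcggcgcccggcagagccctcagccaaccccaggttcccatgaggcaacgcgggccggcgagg

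The ETS letters were in 16.2% of the 74 member windows, against 3.89% of all 32851 windows and 7.99% of the 12513 windows of tested genes. The NRF1 letters were in 4.05% of member windows (Mrpl9, Mrpl32 and Mrpl39), against 0.971% of all windows and 2.01% of those of tested genes. The YY1 letters were in 6.76%, against 0.633% and 1.47%. Each of these was more frequent in the family than in either background, as a description without a test. The SP letters GGGCGG were in 52.7% of member windows, against 35.7% of all and 60.8% of those of tested genes, and the E-box CACGTG, the letters read by MYC, was in 9.46%, against 7.15% and 9.95%. For the factors downstream of JAK kinases, the STAT letters TTCNNNGAA were in 8.11% of member windows, against 8.30% of all and 6.84% of those of tested genes, and the IRF motif was in 4.05%, against 3.44% and 3.33%. The TATA letters TATAAA were in 6.76% of member windows, against 13.6% and 7.43%. Motifs were counted separately, so a window could hold several and their letters could overlap. A match describes letters in a window and not binding.

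With ruxolitinib, 58 of the 77 members tested fell, 0 rose and 19 did not pass the test, at a median log2 fold change of -1.14 (2.20-fold lower), although scaling each library to the 17 CD8 identity genes put the members' median at 0.79 and the median of all genes at 1.98. Calls are from edgeR's quasi-likelihood test over 13480 genes with Benjamini-Hochberg adjusted p under 0.05. Over all genes tested, 25.3% were lower and 29.9% higher, at a median of 0.03 on the log2 scale, so the 75.3% of members that were lower stood beside a background of 25.3%. At an unadjusted p under 0.05, 61 members were lower and 0 higher, and DESeq2 and limma-voom also called 0 members higher. Under the identity scaling, 22 members were called higher and 0 lower (0 also at an unadjusted p under 0.05), against 70.2% of all genes higher and 0.504% lower, and 73 of the 77 members lay below the median of all genes, as they did without it. Under total-count scaling 54 members were lower and 0 higher, against 22.7% and 30.5% of all genes. In these bulk samples, fewer cells of a type and less RNA per cell cannot be told apart. The remaining member, Mrpl53, had 0 counts in all 6 libraries.

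**Figure D1:**
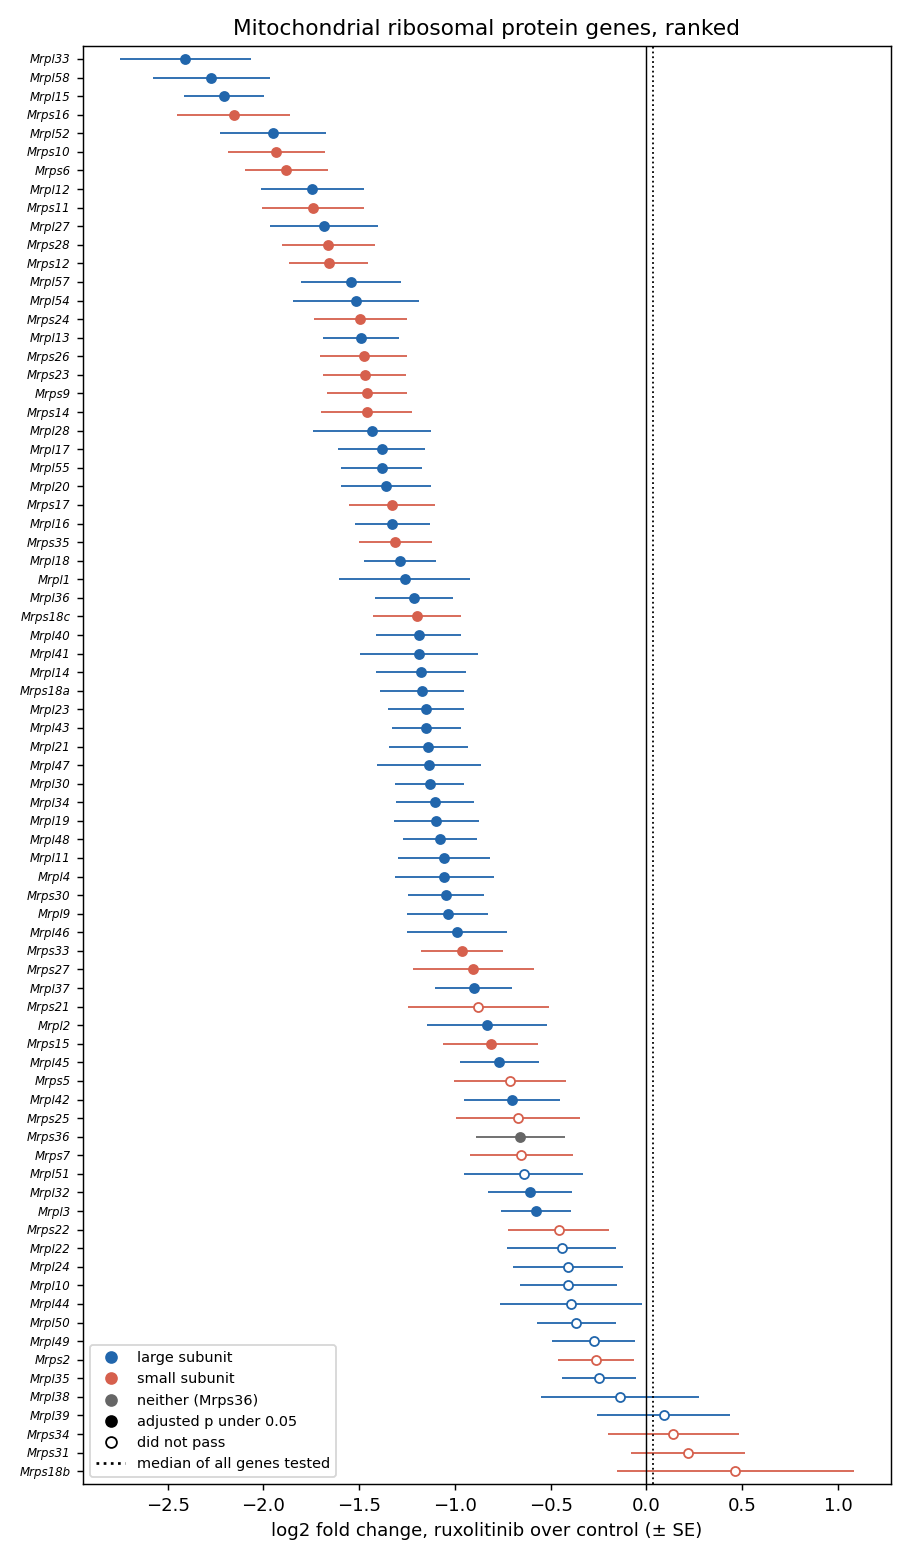
Log2 fold change (ruxolitinib over control, horizontal axis) of the 77 tested members, ordered from the largest fall, with bars for 1 standard error (SE). Filled points are the 58 members past adjusted p under 0.05, open points the 19 that did not pass, and the dotted line is the median of all genes (0.03); scaling to the CD8 identity genes would move the median of the members from -1.14 to 0.79 and that of all genes to 1.98.

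The summed level of the members was 1871, 2524 and 2322 CPM with ruxolitinib (pools 1, 2 and 3) and 4976, 5461 and 5275 CPM in the controls (pools 4, 5 and 6). The highest ruxolitinib pool had less than any control pool. For 57 single members, all 3 ruxolitinib pools lay below all 3 control pools, as was so for 30.3% of all genes, and for 0 members did they lie above, as was so for 35.7% of all genes. Pool 1 was the lowest of the ruxolitinib pools for 62 of the 77 members. Set against the CD8 identity genes, the order of the pools was different. The ratio of the members' geometric mean to that of the identity genes was 0.227, 0.252 and 0.101 with ruxolitinib (pools 1, 2 and 3) and 0.0970, 0.104 and 0.111 in the controls (pools 4, 5 and 6). Ruxolitinib pool 3, the pool with the highest identity genes of its group, was within the control range, and pools 1 and 2 were above it.

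Both subunits were lower on the scale of these calls, which is not that of the CD8 identity genes. Of the large subunit genes, 40 of 50 fell (median log2 fold change -1.13), and of the small subunit genes, 17 of 26 fell (median -1.25). Genes of proteins with bacterial relatives fell in 39 of 48 cases (median -1.19), and those of mitochondria-specific proteins in 18 of 28 (median -0.94). The difference between these classes was not tested. On the scale of these calls 0 members of any class rose in edgeR, DESeq2 or limma-voom.

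Among the large subunit proteins with bacterial relatives, 27 of 31 genes fell, with a median of -1.15. Mrpl33 (chr5:31596935-31664384, GRCm38), which encodes a small protein near the tRNA exit site, stood at 25.8, 33.2 and 31.5 CPM with ruxolitinib (pools 1, 2 and 3, in this order) and at 97.0, 132 and 251 CPM without it (pools 4, 5 and 6). Every control pool was above every ruxolitinib pool, with control pool 6 highest by far, and the log2 fold change was -2.41 ± 0.34 (SE), adjusted p = 0.000383, the largest fall of the family. Mrpl15 (chr1:4773206-4785739), which encodes a core protein close to the peptidyl transferase centre, stood at 22.1, 27.3 and 28.9 CPM with ruxolitinib (pools 1, 2 and 3, in this order) and at 105, 123.2 and 133 CPM without it (pools 4, 5 and 6). Both groups were tight and far apart, with a log2 fold change of -2.20 ± 0.21 (SE), adjusted p = 4.31e-05, which was the smallest adjusted p among the members named here.

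Mrpl12 (chr11:120484613-120489065) encodes the stalk protein that binds translation factors. It stood at 18.7, 32.0 and 26.0 CPM with ruxolitinib (pools 1, 2 and 3, in this order) and at 91.4, 103 and 63.0 CPM without it (pools 4, 5 and 6). The groups did not overlap although control pool 6 was the lowest control, and the log2 fold change was -1.75 ± 0.27 (SE), adjusted p = 0.000572. Mrpl28 (chr17:26123520-26126613), which encodes a structural protein of the large subunit, was at 51.4, 80.7 and 52.1 CPM with ruxolitinib and 115, 144 and 238 CPM in the controls. Here control pool 6 was the highest of all pools, and the log2 fold change was -1.44 ± 0.31 (SE), adjusted p = 0.0034.

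Mrpl34 (chr8:71464959-71465747), whose product is among the smallest of the bacterial type, was at 32.9, 45.8 and 38.6 CPM with ruxolitinib and 83.1, 92.7 and 76.4 CPM in the controls. The log2 fold change was -1.10 ± 0.20 (SE), adjusted p = 0.00145, with no overlap of the groups. Mrpl47 (chr3:32725397-32737605), whose product lies near the exit of the peptide tunnel, was at 5.56, 9.12 and 7.21 CPM with ruxolitinib and 16.7, 13.3 and 18.1 CPM in the controls. Its log2 fold change was -1.14 ± 0.27 (SE), adjusted p = 0.0059, and its exons overlap those of Ndufb5 and Actl6a on the opposite strand, whose reads could be split with it. Mrps18a (chr17:46110986-46128910) carries a small subunit symbol but encodes a protein of the large subunit. It was at 21.6, 26.7 and 24.1 CPM with ruxolitinib and 59.8, 61.5 and 42.0 CPM in the controls, with every control above every ruxolitinib pool and a log2 fold change of -1.17 ± 0.22 (SE), adjusted p = 0.00162. The other 20 genes of this class that fell had log2 fold changes from -1.68 (Mrpl27) to -0.58 (Mrpl3), and Mrpl10, Mrpl22, Mrpl24 and Mrpl35 did not pass, at -0.41, -0.44, -0.41 and -0.25.

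Of the mitochondria-specific proteins of the large subunit, 13 of 19 genes fell, with a median of -0.99. Mrpl58 (chr11:115403752-115412674) encodes a peptidyl-tRNA hydrolase that rescues stalled mitoribosomes and is also built into the large subunit. It stood at 21.4, 30.9 and 36.2 CPM with ruxolitinib (pools 1, 2 and 3, in this order) and at 100.01, 129 and 199 CPM without it (pools 4, 5 and 6). Each control was well above the highest ruxolitinib pool, with a log2 fold change of -2.27 ± 0.31 (SE), adjusted p = 3e-04. Mrpl52 (chr14:54426909-54429756) was at 38.6, 61.2 and 59.0 CPM with ruxolitinib and 157, 189 and 268 CPM in the controls, with a log2 fold change of -1.95 ± 0.27 (SE), adjusted p = 0.000369. Mrpl54 (chr10:81264713-81266934) was at 20.5, 42.3 and 36.6 CPM with ruxolitinib and 104, 119 and 61.0 CPM in the controls. Its lowest control, pool 6, was still above its highest ruxolitinib pool, and the log2 fold change was -1.52 ± 0.33 (SE), adjusted p = 0.00343. Mrps30 (chr13:118378381-118387252), a large subunit gene despite its symbol, was at 17.9, 17.9 and 17.6 CPM with ruxolitinib and 34.6, 42.3 and 33.5 CPM in the controls. The ruxolitinib pools were nearly equal and all below the controls, with a log2 fold change of -1.05 ± 0.20 (SE), adjusted p = 0.00176.

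Another 2 genes of this class had little difference between the group means. Mrpl38 (chr11:116131817-116138868), whose product sits at the central protuberance, was at 24.2, 30.9 and 23.8 CPM with ruxolitinib and 38.8, 37.4 and 10.6 CPM in the controls. Control pools 4 and 5 were above all ruxolitinib pools and control pool 6 was below all of them, so that the groups overlapped and the log2 fold change was -0.14 ± 0.41 (SE), adjusted p = 0.792. Mrpl39 (chr16:84717576-84735742), which encodes a mitochondria-specific protein, was at 16.7, 19.1 and 19.2 CPM with ruxolitinib and 24.3, 19.0 and 8.35 CPM in the controls. Its control pool 6 was again the lowest of all pools, and the log2 fold change was 0.09 ± 0.35 (SE), adjusted p = 0.837. The other 9 genes of this class that fell ranged from -1.54 (Mrpl57) to -0.70 (Mrpl42), and Mrpl51, Mrpl44, Mrpl50 and Mrpl49 did not pass, at -0.64, -0.39, -0.37 and -0.28.

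Among the small subunit proteins with bacterial relatives, 12 of 17 genes fell, with a median of -1.46. Mrps16 (chr14:20389304-20393634), which encodes a protein needed for a stable small subunit, stood at 22.0, 39.5 and 48.9 CPM with ruxolitinib (pools 1, 2 and 3, in this order) and at 145, 157 and 191 CPM without it (pools 4, 5 and 6). The lowest control had more than the highest ruxolitinib pool by a wide margin, with a log2 fold change of -2.16 ± 0.30 (SE), adjusted p = 0.000331. Mrps10 (chr17:47368887-47381417), which encodes a protein of the subunit head, was at 10.2, 14.4 and 11.3 CPM with ruxolitinib and 36.8, 41.4 and 58.6 CPM in the controls, with a log2 fold change of -1.93 ± 0.25 (SE), adjusted p = 0.00027. Mrps6 (chr16:92058270-92112227), which encodes a protein of the platform side, was at 13.0, 13.2 and 15.5 CPM with ruxolitinib and 44.2, 48.5 and 60.8 CPM in the controls. Its ruxolitinib pools differed little from each other and lay below all controls, with a log2 fold change of -1.88 ± 0.22 (SE), adjusted p = 0.000128. Mrps12 (chr7:28739641-28741820), which encodes the protein of the decoding centre, was at 20.3, 25.7 and 27.4 CPM with ruxolitinib and 71.7, 73.5 and 86.9 CPM in the controls. It did not overlap between groups either, with a log2 fold change of -1.66 ± 0.21 (SE), adjusted p = 0.000188.

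Mrps21, Mrps5 and Mrps7 were among the 4 members that did not pass the test with the smallest p. Mrps21 (chr3:95862634-95871519) was at 41.4, 62.4 and 50.1 CPM with ruxolitinib and 111, 129 and 42.0 CPM in the controls. Control pools 4 and 5 were above the ruxolitinib pools, while control pool 6 was among them, with a log2 fold change of -0.88 ± 0.37 (SE), adjusted p = 0.0684. Mrps5 (chr2:127587222-127606829), which encodes a protein of the messenger RNA entry side, was at 18.1, 25.4 and 17.8 CPM with ruxolitinib and 39.9, 39.8 and 20.7 CPM in the controls, and its log2 fold change was -0.71 ± 0.29 (SE), adjusted p = 0.0611. Mrps7 (chr11:115603925-115608036), whose product helps to start assembly of the subunit head, was at 32.3, 53.3 and 39.2 CPM with ruxolitinib and 77.4, 73.5 and 45.3 CPM in the controls, with a log2 fold change of -0.65 ± 0.27 (SE), adjusted p = 0.0633. In both of these genes pool 6 was the lowest control and overlapped the ruxolitinib pools. Exons of Mrps7 overlap those of Mif4gd and Gga3 on the opposite strand.

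Mrps18b (chr17:35910379-35916389) had the highest fold change of the family but did not pass. It was at 6.44, 8.52 and 6.005 CPM with ruxolitinib and 8.25, 6.08 and 0.810 CPM in the controls, so that control pool 6 alone was low, with a log2 fold change of 0.46 ± 0.62 (SE), adjusted p = 0.543. The other 8 genes of the class that fell ranged from -1.74 (Mrps11) to -0.81 (Mrps15), and Mrps2 did not pass, at -0.26.

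Of the mitochondria-specific proteins of the small subunit, 5 of 9 genes fell, from -1.48 (Mrps26) to -0.91 (Mrps27), with a class median of -0.91. Mrps25 (chr6:92169525-92184033) was at 11.6, 18.4 and 17.5 CPM with ruxolitinib and 31.9, 29.3 and 14.5 CPM in the controls, and its log2 fold change was -0.67 ± 0.32 (SE), adjusted p = 0.104. Mrps22 (chr9:98588730-98601660) was at 7.46, 10.2 and 8.98 CPM with ruxolitinib and 12.7, 14.3 and 9.65 CPM in the controls, with a log2 fold change of -0.46 ± 0.26 (SE), adjusted p = 0.164. In both genes control pool 6 lay within the ruxolitinib range while pools 4 and 5 were above it. Mrps34 (chr17:24895116-24897502), whose product is needed for stable small subunit RNA, was at 14.6, 18.6 and 19.3 CPM with ruxolitinib and 19.8, 19.95 and 7.97 CPM in the controls, with a log2 fold change of 0.14 ± 0.34 (SE), adjusted p = 0.745. Its control pool 6 was the lowest of the 6 pools and control pools 4 and 5 the highest. Mrps31 did not pass either, at 0.22. Mrps36 (chr13:100735955-100744659), first described as a mitoribosomal protein and now known as an adaptor of the 2-oxoglutarate dehydrogenase complex, was at 21.4, 32.0 and 24.9 CPM with ruxolitinib and 44.7, 45.9 and 33.0 CPM in the controls. The groups were apart by a narrow margin, with a log2 fold change of -0.66 ± 0.23 (SE), adjusted p = 0.0357. That call was lost under total-count scaling (adjusted p = 0.0514) and without ruxolitinib pool 1 (0.128) or 3 (0.0847) or control pool 4 (0.0925) or 5 (0.117), all in edgeR's quasi-likelihood test.

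**Figure D2:**
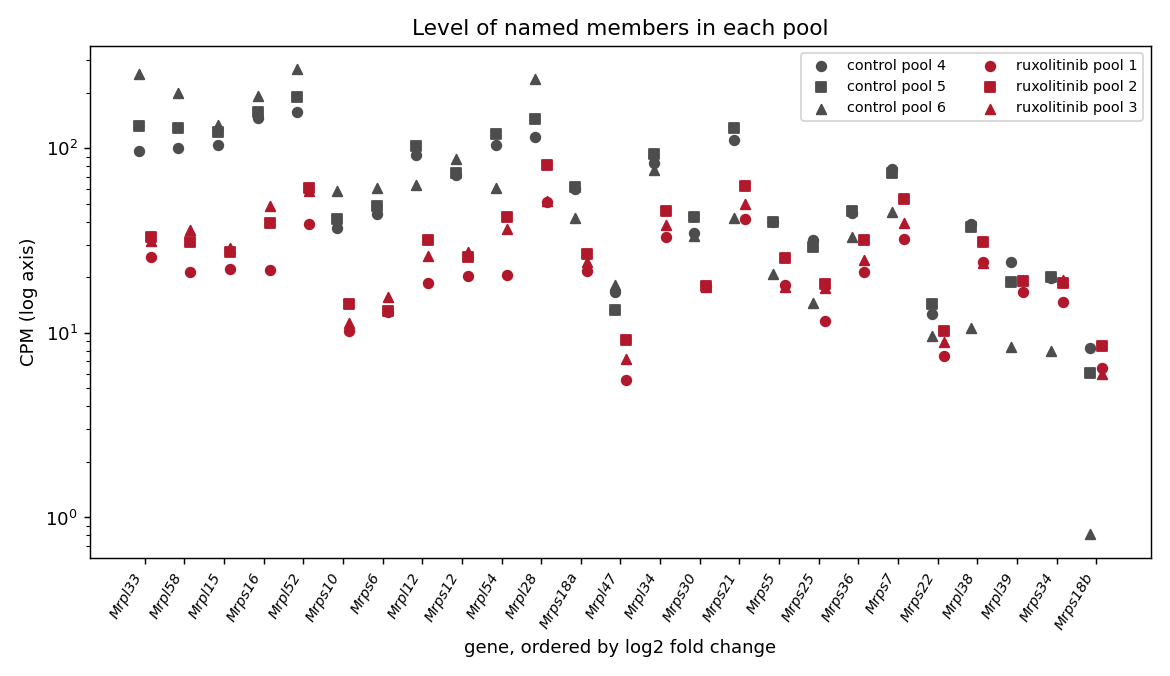
Level in CPM (vertical log axis) of 25 members in each pool, ordered by log2 fold change from Mrpl33 on the left to Mrps18b on the right. Grey symbols are control pools 4, 5 and 6 and red symbols ruxolitinib pools 1, 2 and 3; the grey triangle (control pool 6) is the highest control for some genes, such as Mrpl33 at 251 CPM, and the lowest for others, such as Mrpl12 at 63.0 CPM and Mrps18b at 0.810 CPM.

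Control pool 6 differed from the other controls gene by gene and in both directions. Its summed member level was between theirs, but its median member level was 47.6 CPM, below the 56.8 and 65.5 CPM of pools 4 and 5. The median deviation of pool 6 was -0.15 on the log2 scale over members and -0.03 over all genes. Pool 6 was the highest control for 27 members, the lowest for 44 and between the others for 6. The SD over members of the log2 ratio of pool 6 to the mean of pools 4 and 5 was 0.685, whereas that of pool 4 to pool 5 was 0.176. Over all genes tested the same SDs were 0.690 and 0.394. The deviation of pool 6 ran from -2.55 (Mrps18b) to 1.13 on the log2 scale. Of the 20 largest falls, 15 had pool 6 as the highest control, and of the 20 members at the other end, 18 had it as the lowest control. Of the 20 members whose groups overlapped, 19 had pool 6 as the lowest control.

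**Figure D3:**
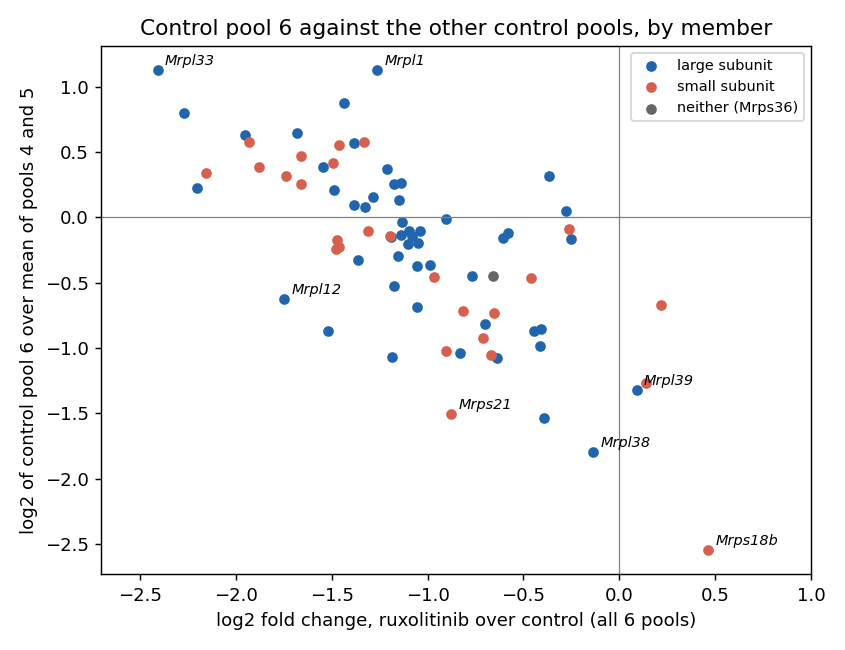
Each point is 1 tested member, with its log2 fold change over all 6 pools on the horizontal axis and the log2 ratio of control pool 6 to the mean of control pools 4 and 5 on the vertical axis (0.5 CPM added to each value). Pool 6 was the highest control for 15 of the 20 largest falls and the lowest for the other 5, Mrpl12 among them, and the deviation reached -2.55 for Mrps18b. Both axes use control pools 4, 5 and 6.

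Without control pool 6, 69 of 77 members were lower, against 27.4% of all genes, and 0 were higher, against 32.1%. All 58 members called with 6 pools were among them. The 11 that were added included Mrps21 (-1.24), Mrps5 (-0.98), Mrps25 (-0.96), Mrps7 (-0.87), Mrps22 (-0.61) and Mrpl38 (-0.55), and the 8 that still did not pass included Mrpl39 (-0.25), Mrps34 (-0.19) and Mrps18b (-0.054). In that fit 46 large subunit and 22 small subunit genes fell, with medians of -1.13 and -1.25. Spearman's rho over the 77 members between the fold change and the deviation of pool 6 was -0.685 with 6 pools, where both share pool 6, and -0.433 when the fold change was computed without it. The same values were -0.146 over 11939 coding genes and 0.004 over 11930. These are descriptions across genes, which are not independent replicates.

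Mitoribosomal proteins are short, and shorter genes were lower in general. The coding length of the tested members ran from 195 bases (Mrpl33) to 1326, with a median of 588, against a median of 1365 over all coding genes. Coding genes were split by length into 5 classes of nearly equal size. In the shortest class, 111 to 732 bases, the median log2 fold change was -0.62 and 45.5% of genes were lower, and 40 of the 50 members there (80.0%) were lower, with a median of -1.19. From 735 to 1140 bases the median of all genes was -0.19 with 31.7% lower, and 14 of 21 members (66.7%) were lower, with a median of -0.83. From 1143 to 1611 bases the median of all genes was 0.03 with 23.7% lower, and 4 of 6 members were lower, with a median of -0.90. The longest genes, from 2460 bases, had a median of 0.58 with 7.41% lower and held no member.

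**Figure D4:**
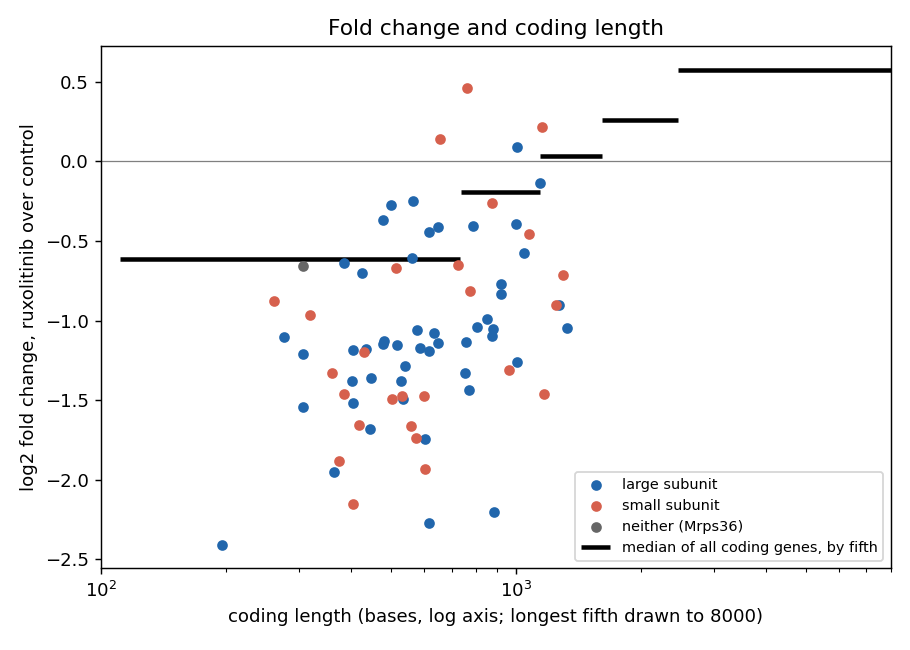
Log2 fold change (vertical axis) against coding length in bases (horizontal log axis) for the 77 tested members, with black bars for the median of all coding genes in each of 5 classes of coding length. The bars rise from -0.62 to 0.58, and the members' medians, from -1.19 to -0.83, lie below the bar of their own class; on the scale of the CD8 identity genes the members' median would be 0.79, below the 1.98 of all genes.

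After offsets for coding length and GC content per library, chosen after the data were seen, 46 members were lower, against 27.1% of all genes, and 0 were higher, against 28.6%, with a median of -0.68. All 46 were among the 58. Mrpl33 was at -1.70, Mrps6 at -1.19, Mrpl52 at -1.01 and Mrps12 at -0.70. The short genes Mrpl54 (-0.57, adjusted p = 0.0759), Mrpl34 (-0.14, adjusted p = 0.488) and Mrps36 (0.024) no longer passed edgeR's test. Spearman's rho between fold change and coding length was 0.308 over 11939 genes and 0.392 over the 77 members, and between fold change and GC content it was 0.019 and -0.176.

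Members with more messenger RNA had larger falls. Spearman's rho between the log2 fold change and the mean level was -0.605 over the 77 members, against -0.273 over 11939 coding genes. With control pool 6 left out of both measures, rho was -0.497 over the members, against -0.235 over 11930 coding genes. In each case both measures come from the same pools. Per kilobase of the deposited gene length, the highest mean levels over the 6 pools were those of Mrpl52 (116 CPM per kb), Mrpl34 (101 CPM per kb), Mrps21 (98.5 CPM per kb), Mrpl28 (89.2 CPM per kb) and Mrpl54 (77.5 CPM per kb). Mrps22 and Mrpl47, each at 2.64 CPM per kb, and Mrps18b, at 2.88 CPM per kb, were lowest. The order differed between the groups. Among the controls Mrpl52 was highest, at 184.5 CPM per kb, and Mrps18b lowest, at 2.42 CPM per kb. With ruxolitinib, Mrps21 (69.4 CPM per kb) and Mrpl34 (64.5 CPM per kb) were above Mrpl52 (47.7 CPM per kb), and Mrps10 was lowest, at 1.48 CPM per kb. The sources used here do not say how the deposited length was measured, and for Mrpl33 it was 7326 bases for a coding length of 195 bases, so a level per kilobase can be too low where long transcripts are annotated.

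Of the 78 members, 33 have exons that overlap another gene, 28 of them on the opposite strand. For 19, among them Mrpl53 with 0 counts of its own, the other gene had at least 10% of the member's counts. No source used here states whether counting used strand, so these members are uncertain. Mrps34 overlaps Mapk8ip3 and Mrps25 overlaps Nr2c2 in this way.

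Promoter letters were also set beside the calls, with no test. Of the 51 members with a window that fell, 10 held the ETS letters, and of the 17 that did not pass, 2 did. The STAT letters were in 3 of 51 and 3 of 17, and the SP letters in 28 of 51 and 6 of 17. The NRF1, ETS or YY1 letters were in 19 members, of which 15 fell, beside 51 of all 68 members with a window. Of the promoters printed above, Mrpl33 (-2.41), Mrpl27 (-1.68), Mrps27 (-0.91), Mrpl9 (-1.04) and Mrps11 (-1.74) belong to genes that fell, and Mrpl39 (0.09) to one that did not pass.

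Among known regulators of mitochondrial genes, 2 of 9 tested fell and 0 rose in edgeR, DESeq2 and limma-voom (0 also at an unadjusted p under 0.05), with a median of -0.08. That is 22.2% lower beside 25.3% of all genes. Scaled by CD8 identity genes, 0 were lower and 8 higher, against 0.504% and 70.2% of all genes. Myc, a factor that drives growth and ribosome production, was at 20.4, 24.1 and 23.4 CPM with ruxolitinib and 74.9, 60.8 and 46.9 CPM in the controls. Every control was above every ruxolitinib pool, with a log2 fold change of -1.43 ± 0.23 (SE), adjusted p = 0.000651. Gabpb1, a subunit of the GABP factor, was at 24.8, 34.4 and 29.6 CPM with ruxolitinib and 42.2, 44.7 and 54.0 CPM in the controls, with a log2 fold change of -0.67 ± 0.21 (SE), adjusted p = 0.0225, and that call was lost without ruxolitinib pool 1 (edgeR adjusted p = 0.103) or control pool 5 (0.0543). Its DNA-binding partner Gabpa (-0.44), Nrf1 (-0.08) and Yy1 (-0.03) did not pass.

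Genes that act with the mitoribosome were counted in lists drawn up from their known roles. Together the 6 lists held 108 tested genes of 111, of which 56 fell and 3 rose. Over all genes tested, 25.3% fell and 29.9% rose, which is the background for each of these lists. Scaled by CD8 identity genes, 0 of the 108 were lower and 53 higher, against 0.504% and 70.2% of all genes. Without ruxolitinib pool 1, 40 were lower and 1 higher, and without pool 2, 44 and 1. Of the 5 subunits whose symbols do not start with Mrp, 4 fell and 0 rose (0 also in DESeq2, in limma-voom and at an unadjusted p under 0.05), with a median of -1.02, and 2 fell without ruxolitinib pool 1, without pool 2 or without control pool 5. Chchd1, a small subunit protein, was at 19.8, 26.7 and 24.6 CPM with ruxolitinib and 62.5, 66.8 and 65.2 CPM in the controls. The controls were tight and far above the ruxolitinib pools, with a log2 fold change of -1.45 ± 0.20 (SE), adjusted p = 0.000311. Aurkaip1 (-1.13 ± 0.20, SE), a small subunit protein, Gadd45gip1 (-1.02 ± 0.32), a large subunit protein, and Dap3 (-0.59 ± 0.19), the GTP-binding protein of the small subunit, fell as well, and Ptcd3 (0.14) did not pass. The call of Gadd45gip1 was lost without ruxolitinib pool 1 (edgeR adjusted p = 0.0939) or 2 (0.0571), without control pool 4 (0.0523) or 5 (0.0874), and with the length and GC offsets (0.0638).

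Of 25 genes of mitoribosome assembly and rRNA modification, 15 fell, with a list median of -0.86, and 1, the rRNA methyltransferase Mrm1 (0.80 ± 0.31 (SE), adjusted p = 0.0486 in edgeR), rose, with overlapping groups, a call that limma-voom, the fit of protein-coding genes alone and leaving out ruxolitinib pool 1 or 2 or control pool 5 or 6 did not make. Rpusd3, a pseudouridine synthase family member, was at 1.98, 1.98 and 2.97 CPM with ruxolitinib and 8.53, 12.2 and 11.3 CPM in the controls, which is few reads per pool. All 3 ruxolitinib pools were lower than all controls, with a log2 fold change of -2.20 ± 0.32 (SE), adjusted p = 0.000446. Mettl17 (-1.36), an assembly factor of the small subunit, and Ddx28 (-1.19), a helicase that acts on the large subunit, fell too.

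Of 16 tested translation factors, 5 fell and 0 rose (0 also in DESeq2, in limma-voom and at an unadjusted p under 0.05), with a median of -0.55. That is 31.2% lower, near the 25.3% of all genes, and without ruxolitinib pool 1 or 2, 2 fell. Tsfm, the exchange factor for the mitochondrial elongation factor Tu, was at 14.5, 20.2 and 18.2 CPM with ruxolitinib and 65.3, 83.8 and 109 CPM in the controls. It had one of the largest falls of the whole pathway, with no overlap and a log2 fold change of -2.28 ± 0.25 (SE), adjusted p = 0.000101. The ribosome recycling factor Mrrf was at -0.88 and Mtfmt, the enzyme that formylates the initiator tRNA, at -0.87. The call of Mtfmt was lost without ruxolitinib pool 1 or 2 or control pool 4 or 5 (edgeR adjusted p of 0.0837 to 0.0907). Of 20 mitochondrial tRNA charging enzymes, 7 fell and 1, Gatc (0.76), rose, with a median of -0.34. The 7 are 35% of the list, beside 25.3% of all genes lower. Gatc was not called without ruxolitinib pool 1 or 2 or control pool 6. Lars2, the leucine enzyme, was at 36.7, 23.4 and 45.6 CPM with ruxolitinib and 92.5, 143 and 189 CPM in the controls and fell by a log2 fold change of -2.004 ± 0.32 (SE), adjusted p = 0.000734. Qrsl1 (-1.58), a subunit of the glutamine amidotransferase, and Sars2 (-1.18), the serine enzyme, also fell.

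Of 16 genes that copy, transcribe or process the mitochondrial genome, 6 fell and 1 rose, with a median of -0.44. The 6 are 37.5% of the list, beside 25.3% of all genes lower, and 3 fell without ruxolitinib pool 1 or without pool 2. Tfam, the protein that packs mitochondrial DNA and starts its transcription, was at 26.2, 25.7 and 25.5 CPM with ruxolitinib and 70.9, 62.1 and 74.6 CPM in the controls. The ruxolitinib pools were almost equal and below all controls, with a log2 fold change of -1.42 ± 0.19 (SE), adjusted p = 0.000246. Polg, the mitochondrial DNA polymerase, was at 45.4, 45.2 and 36.9 CPM with ruxolitinib and 22.0, 21.1 and 17.2 CPM in the controls. It went the other way without overlap, with a log2 fold change of 1.08 ± 0.21 (SE), adjusted p = 0.00182, which was 0.10 (edgeR adjusted p = 0.648) after the offsets for coding length and GC content. Hsd17b10 (-0.76), a subunit of the enzyme that trims mitochondrial tRNA ends, fell. Of 26 genes of mitochondrial protein import, 19 fell and 0 rose (0 also in DESeq2, in limma-voom and at an unadjusted p under 0.05), with a median of -1.06. The channel gene Tomm40 was at 31.8, 46.5 and 42.2 CPM with ruxolitinib and 135, 139 and 118 CPM in the controls, with a log2 fold change of -1.70 ± 0.21 (SE), adjusted p = 0.000199. Tomm5 (-2.11) and Tomm20 (-1.44), also of the outer membrane gate, fell.

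**Figure D5:**
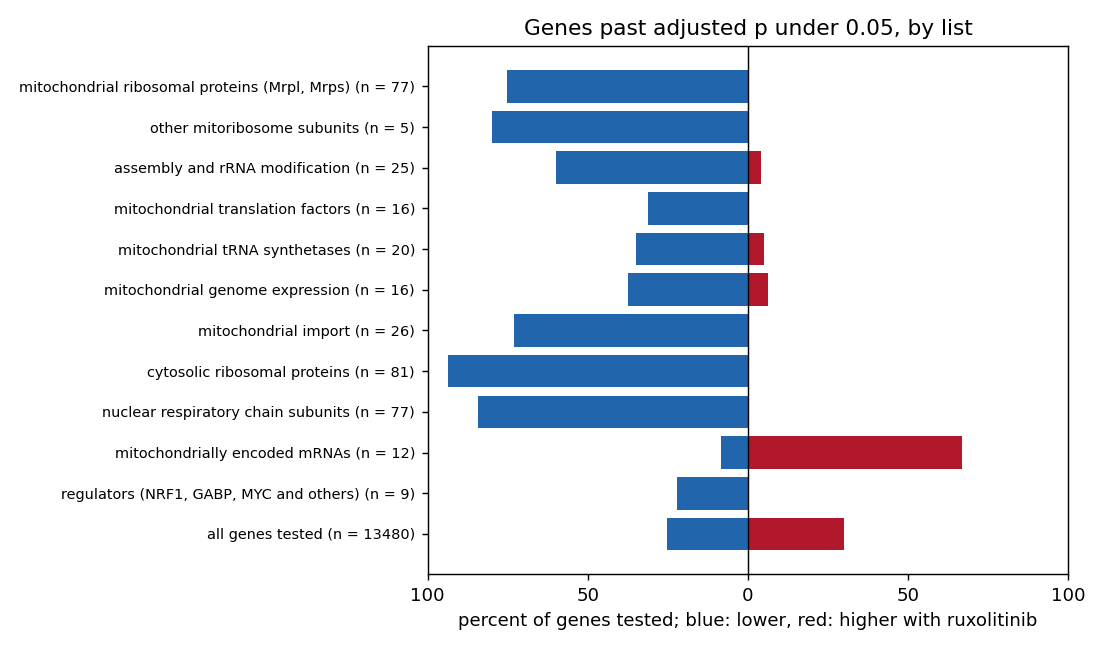
Percent of tested genes past adjusted p under 0.05 (horizontal axis), lower with ruxolitinib to the left in blue and higher to the right in red, for the mitochondrial ribosomal proteins, 10 other lists and all genes. The members stand at 75.3% lower beside 25.3% for all genes, and the mitochondrially encoded mRNAs are the only list drawn with more genes higher (8) than lower (1). Scaled to the CD8 identity genes, 0 members are lower and 22 higher, against 0.504% and 70.2% of all genes.

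Cytosolic ribosomal proteins and nuclear respiratory chain subunits had shares of lower genes above that of the mitoribosome. Of 81 cytosolic ribosomal protein genes, 76 fell and 0 rose, with a median of -1.87. Of 77 nuclear respiratory chain genes, 65 fell and 0 rose, with a median of -1.34, beside 58 of 77 and -1.14 for the members. Scaled by CD8 identity genes, 0 were lower in each list and 3 and 12 higher, against 0.504% and 70.2% of all genes. DESeq2 and limma-voom called 0 genes higher in both lists, as did an unadjusted p under 0.05. The cytosolic Rps13, a small subunit protein, was at 363, 465 and 628 CPM with ruxolitinib and 2479, 3068 and 4188 CPM in the controls, and the ATP synthase subunit Atp5e was at 135, 186 and 181 CPM with ruxolitinib and 725, 896 and 1062 CPM in the controls. All controls were above all ruxolitinib pools in both genes. The difference between these lists and the members was not tested, and near-identical copies of cytosolic ribosomal protein genes make their counts uncertain.

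Of the 12 tested mitochondrially encoded mRNAs, which the mitoribosome translates, 8 rose and 1 fell, beside 29.9% of all genes higher and 25.3% lower. Their median was 1.05 where that of the members was -1.14. Scaled by CD8 identity genes, 10 of these mRNAs were higher and 0 lower, and 22 of the 77 members were higher and 0 lower. Over all genes, that scaling called 70.2% higher and 0.504% lower. Without control pool 4, or without pool 5, 2 of these mRNAs fell. The cytochrome oxidase subunit mt-Co1 was at 11940.1, 9778 and 9181 CPM with ruxolitinib and 2489.6, 1826 and 919 CPM in the controls. The lowest ruxolitinib pool was far above the highest control, with a log2 fold change of 2.56 ± 0.39 (SE), adjusted p = 0.000535. The complex I subunits mt-Nd5 (2.11 ± 0.30, SE) and mt-Nd4 (1.62 ± 0.26) rose, and mt-Nd3, a short complex I subunit, fell (-1.29 ± 0.34 (SE), edgeR adjusted p = 0.00907). mt-Nd3 was at 3.44, 3.50 and 2.655 CPM with ruxolitinib and 6.15, 6.80 and 10.6 CPM in the controls. Only mt-Nd4l, which rose, was lower, at 2.12, 1.52 and 1.58 against 0.055, 0.523 and 0.187 CPM. Few reads back both, and how reads that match several places were counted is not stated. The RNAs of the mitoribosome itself varied more between pools than between groups. The small subunit RNA mt-Rnr1 was at 967, 126 and 626 CPM with ruxolitinib and 532, 685 and 608 CPM in the controls (log2 fold change -0.09 ± 0.55 (SE), adjusted p = 0.903), and the large subunit RNA mt-Rnr2 was at 1758, 255 and 1049 CPM with ruxolitinib and 542, 677 and 795 CPM in the controls (log2 fold change 0.60 ± 0.54 (SE), adjusted p = 0.363). Ruxolitinib pool 2 was the lowest of the 6 pools for both, and the sources used here do not give the RNA selection step, which sets how much rRNA enters a library.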

How the data were processed

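Values were read from a deposited table of whole-number counts, which the authors had not normalised, with a gene length in bases. Per the submitters' processing notes, reads were aligned with HISAT2 2.0.5 to mm10, and per the labels' protocols libraries were made with the NEBNext Ultra II kit. The sources used here name no counter, strand setting or annotation release. Groups were taken from the sample titles.

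The test was edgeR's quasi-likelihood test (edgeR 4.0.16, R 4.3.3; filterByExpr, TMM factors, robust glmQLFit, Benjamini-Hochberg adjustment over 13480 genes, threshold 0.05). CPM use TMM factors. The SE is the log2 fold change divided by the square root of F. At 13829808 to 17708196 counts per library, levels near 1 CPM rest on few reads. Coding lengths came from GENCODE M21 (GRCm38) and promoters from RefSeq GRCm38.p6.

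Members and lists were chosen with earlier results of these data known. The result of 1 marker gene is not reported here. The genes named were the 8 largest falls and up to 6 largest rises among called members (there were none), the 5 highest and 3 lowest per kilobase, the 4 uncalled with the smallest p, the 3 nearest to 0, 6 with known roles and up to 3 called genes of each list; further genes that complete a count, and Mrps11, Mrpl9, Mrpl27 and Mrps27 for their promoters, were named after their values were seen. Alternatives were other scalings and filters, DESeq2 1.42.0, limma-voom 3.58.1, protein-coding genes alone, each pool left out and, added later, offsets for length (8 bins) and GC (5 bins). On simulated counts for ruxolitinib against control (13229 genes), edgeR called 26 of 100 genes changed 2-fold, 93 of 100 changed 4-fold and 5 unchanged genes. Far fewer genes were changed there than the 25.3% lower and 29.9% higher called here. The adjusted threshold was therefore stricter there, and these shares do not measure the power of the real fit.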

Additional observations from a re-analysis of the deposited data

Results flagged for a closer look

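Mrpl48-ps, a processed pseudogene of Mrpl48 on chromosome 4, was outside the family as chosen here and is a signal in data that the comparisons above did not use. It was at 2.34, 2.51 and 1.83 CPM in ruxolitinib pools 1, 2 and 3 and at 0.388, 1.31 and 0.810 CPM in control pools 4, 5 and 6. The log2 fold change was 1.42 ± 0.52 (SE), with an adjusted p of 0.0417 in edgeR's quasi-likelihood test, and the groups did not overlap. Of all genes tested, 29.9% were called higher and 35.7% had all ruxolitinib pools above all controls. The values of Mrpl48-ps rest on 32, 33 and 29 counts against 7, 20 and 13, and Mrpl48 itself fell, at -1.08. Reads of a pseudogene and its parent can be assigned to either. The other pseudogene of the family with enough counts to test, Mrpl23-ps1, was at 1.17, 1.37 and 0.632 CPM with ruxolitinib and 2.16, 2.36 and 1.99 CPM in the controls. All its ruxolitinib pools were below all controls, but its log2 fold change of -1.04 ± 0.46 (SE) did not pass edgeR's test (adjusted p = 0.0771).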

How the results depend on the processing

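Scaling each library to the CD8 identity genes turned the sign of the family's median and raised the median of all genes to 1.98. It gave 22 members higher, 0 lower and a median of 0.79, and 0 lower and 53 higher in the other lists of mitochondrial translation. Over all genes, 70.2% were higher and 0.504% lower, and 73 of the 77 members stayed below the median of all genes. Single genes that turned were Mrpl12 (0.20), Mrpl34 (0.84), Mrps21 (1.13), Mrpl28 (0.48), Mrpl54 (0.40), Mrps22 (1.49), Mrpl47 (0.77), Mrps5 (1.31), Mrps7 (1.33), Mrps25 (1.27), Mrpl38 (1.92), Mrps36 (1.31), Mrps30 (0.91), Mrps18a (0.79), Mrps12 (0.21), Chchd1 (0.46), Aurkaip1 (0.81), Gadd45gip1 (0.94), Mettl17 (0.51), Ddx28 (0.69), Mrrf (1.04), Mtfmt (1.04), Qrsl1 (0.25), Sars2 (0.75), Tfam (0.52), Hsd17b10 (1.21), Tomm40 (0.22), Tomm20 (0.47), Myc (0.53), Gabpb1 (1.24), Ndufc2 (0.27) and Atp5g2 (0.11). This scaling adds the fall of the identity genes to every gene, and it assumes that they do not respond to the drug. It also does not separate reads of CD8 T cells from those of other cell types, whose part was not tested. With offsets for coding length and GC content, added after the data were seen, the median was -0.68, Mrps25 was at 0.0025, Mrps36 at 0.024 and Mrpl38 at 0.14. In limma-voom Mrpl38 was at 0.064. The cause of these 3 shifts was not tested. Leaving out each pool gave 50 to 69 members lower, 0 higher and a median of -1.19 to -0.99, with 40 to 55 genes lower and 1 to 3 higher in the other lists. It turned Mrpl38 (-0.55 to 0.15), Mrpl39 (-0.25 to 0.44) and Mrps18b (-0.054 to 1.04) and Mrps34 (-0.19 to 0.35), each below 0 without control pool 6. With the other scalings, filters and tests, 54 to 63 members were lower and 0 higher. The shares of all genes called were not taken for most of these fits or of those that leave out a pool. They were 27.4% lower and 32.1% higher without control pool 6, and 22.7% and 30.5% under total-count scaling. No paired analysis was possible because pools are numbered 1 to 3 and 4 to 6 and share no number. Few reads back the lowest members and each group had 3 pools, so a member that did not pass may still differ. Most 2-fold changes were missed on simulated counts, but far fewer genes were changed there than were called here. That share therefore does not give the power for these members.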

Other observations

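Mrps11 and Mrpl46 lie head to head on chromosome 7 and are transcribed in opposite directions, Mrps11 at 78783119 to 78792989 and Mrpl46 at 78775236 to 78783531 (GRCm38), so that their first exons overlap. Both fell. Mrps11 was at 14.1, 26.1 and 21.3 CPM with ruxolitinib and 55.5, 71.0 and 79.0 CPM in the controls. Mrpl46 followed at 12.2, 19.2 and 22.4 CPM and 37.2, 39.9 and 29.8 CPM. No pool of one group reached the range of the other for either gene. These genes were chosen after their values were seen.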
